A study of Homo sapiens with 8 samples.

Results

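The 39 human HOX genes were followed, by cluster and by position in the cluster, in cells labelled TIP60 knock-out (KO) and in control cells. They are the protein-coding genes whose symbol is HOXA, HOXB, HOXC or HOXD plus a number, found by their Entrez gene ID among the 27936 genes with an ID in the count tables. The HOXA cluster (chr7:27092993-27200091, hg38) holds 11 of them, HOXB (chr17:48528526-48728750) holds 10, HOXC (chr12:53938831-54056030) holds 9 and HOXD (chr2:176087487-176190907) holds 9. The data are RNA-seq gene counts from 8 libraries of HEK293, an immortal line made from human embryonic kidney cells. The 4 KO libraries carry the genotype label HEKg1/C9, 2 with guide sgRNA1 and 2 with guide sgRNA2. The 4 control libraries carry the label HEKg1, again 2 with sgRNA1 and 2 with sgRNA2. Doxycycline (1 µg/ml, 3 days) was given to induce the guide RNAs in all 8 samples, controls included. The labels do not say what the guides of the control cells target, what the genotype codes stand for, whether the cells are clones, or whether the replicates came from separate cultures. The p-values below therefore measure the spread between these libraries, which may be technical.

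HOX genes encode homeodomain transcription factors that give cells their position along the body axis. Genes with the same number in different clusters are paralogs, copies of a common ancestral gene. In each cluster the low numbers lie at the 3′ end and the high numbers at the 5′ end. The 3′ genes are used earlier and closer to the head in the embryo, and the 5′ genes later and closer to the tail, an order called collinearity. In cell types that have left the embryo's patterning stage, the mix of active HOX genes is largely kept by Polycomb proteins, which silence the clusters, and by MLL proteins, which keep genes active. Retinoic acid is a known activator of the 3′ genes, and PBX and MEIS proteins bind DNA together with HOX proteins. TIP60 is a histone and protein acetyltransferase, and its gene is KAT5.

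KAT5 had 18.6, 18.3, 20.2 and 18 CPM (reads of the gene per 1000000 counted, scaled by TMM) in the KO libraries, against 48.1, 45.5, 44.5 and 49 CPM in the control libraries, with the libraries in the order sgRNA1 replicates 1 and 2, then sgRNA2 replicates 1 and 2, as in all lists of 4 values below. KAT5 mRNA was thus lower in every KO library (log2 fold change -1.32 ± 0.064 SE, adjusted p = 6.71e-13), with 1223 counts left in the KO arm. Library totals were 13325415 to 18841774 counts in the KO arm and 3723992 to 14601552 in the control arm, where sgRNA1 replicate 2 was the shallowest. Defining markers of leukocytes, fibroblasts, endothelium and hepatocytes were summed over 5 genes each. The leukocyte sums were 1.19 to 1.93 CPM in KO and 0.485 to 1.08 CPM in control libraries, with LST1 at 0 counts throughout. The fibroblast sums were 19 to 23.8 CPM in KO and 14.7 to 25 CPM in control libraries, most of it COL1A1. The endothelium sums were 2.91 to 4.2 CPM in KO and 0 to 0.404 CPM in control libraries, most of it KDR, and the hepatocyte sums were 0.409 to 0.668 CPM in KO and 0 to 0.162 CPM in control libraries, with SERPINA1 at 0. Epithelial markers summed to 188 to 195 CPM in KO and 155 to 174 CPM in control libraries, with KRT8 the most abundant. Of 5 intermediate filament genes HEK293 is known for, 4 were called higher and 1 lower, beside 31.8% and 31.2% of all genes tested. The most abundant, neurofilament NEFM, averaged 12397 CPM in KO and 8380 CPM in control libraries, while VIM, the one called lower, averaged 252 CPM in KO and 311 CPM in control libraries. Kidney progenitor markers summed to 153 to 158 CPM in KO and 124 to 147 CPM in control libraries, but did not rise as a group. Of these 10 markers 7 were tested, with 2 called higher, 1 lower and 4 not called (median log2 fold change 0.05). The part of these genes in the HOX results was not tested.

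The HOX genes did not move as a body: the HOXA cluster was higher in KO cells along nearly its whole length, the HOXB genes called higher were 3′ genes, the HOXC cluster had no member called higher, and HOXD members went both ways. The HOXD split was near that of all genes tested. Of the 39 genes, 35 had enough counts for the test. A gene was called at an adjusted p under 0.05 (edgeR quasi-likelihood F test over the 8 libraries, guide number in the model, Benjamini-Hochberg over 14455 genes). By that rule 16 HOX genes were called higher in KO than in control cells, where 31.8% of all genes tested were called higher. Another 8 were called lower, against 31.2% of all genes, and 11 were not called. In all, 63% of the genes tested were called, so a call by itself sets no gene apart. The median log2 fold change over the 35 was 0.15, against 0.00684 over all genes tested. HOXD1 alone changed at least 2-fold, a size reached upward by 8.38% of all genes. For 14 HOX genes every KO library lay above every control library, as for 27.3% of all genes tested, and for 4 every KO library lay below, as for 25.6% of all genes. In bulk libraries fewer cells that express a gene and less RNA per cell cannot be told apart.

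**Figure D1:**
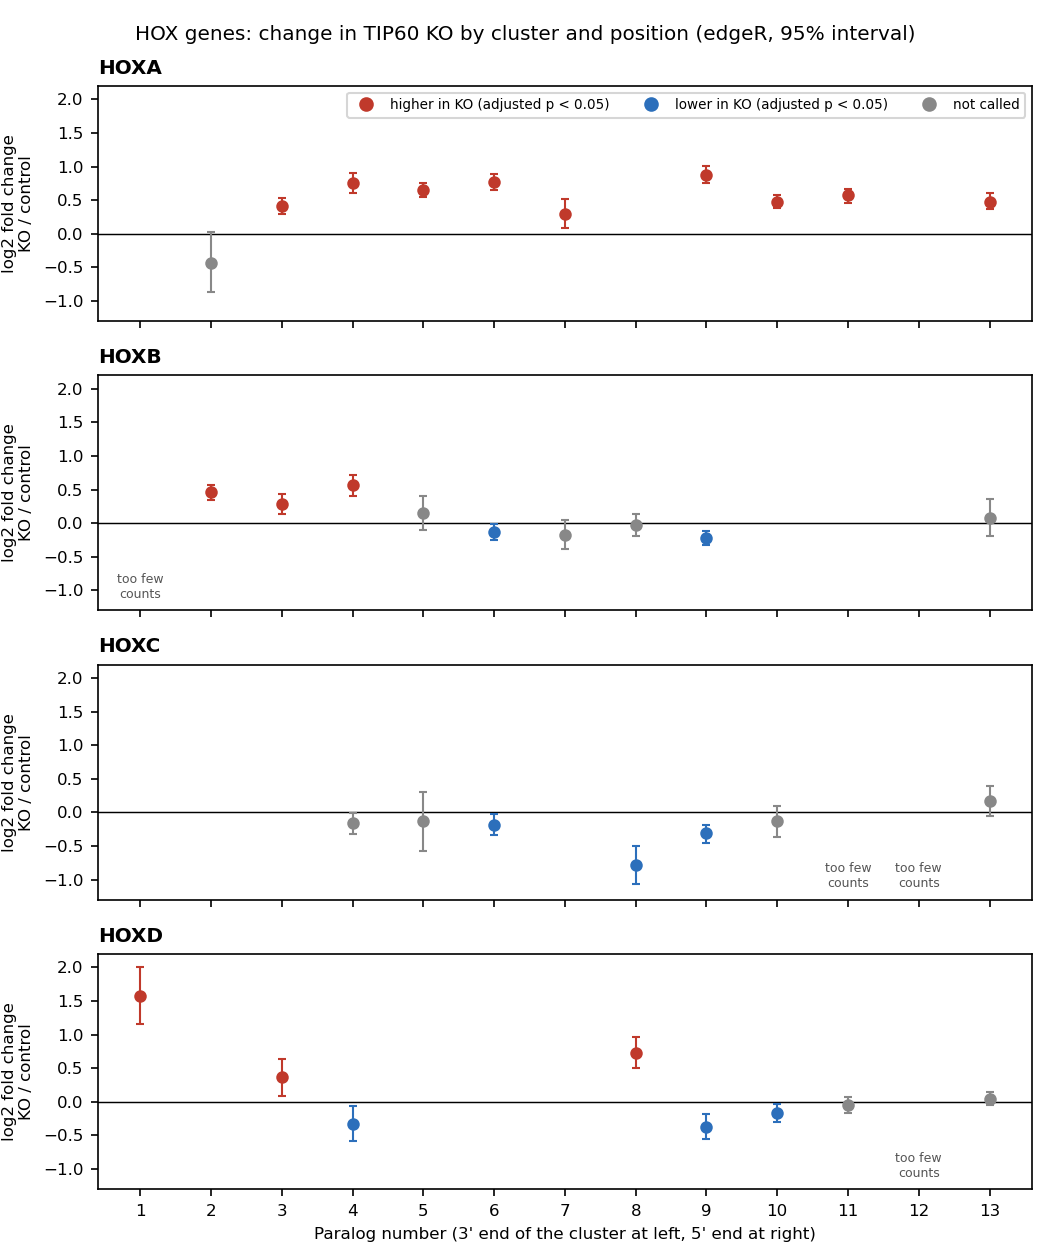
Log2 fold change of KO over control (y axis) with its 95% interval against paralog number (x axis, 3′ end at left) in each of the 4 clusters. Red points are genes called higher in KO, blue points genes called lower and grey points genes not called, and the HOXA points shown are red except HOXA2, while no HOXC point is.

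In the HOXA cluster 10 of 11 genes were called higher in KO cells, beside 31.8% of all genes tested. For all 10 the lowest KO library lay above the highest control library, as for 27.3% of all genes tested. HOXA9 (Entrez 3205), a regulator of blood progenitors that is active in MLL-rearranged leukaemia, had 63, 57.9, 71.1 and 64.1 CPM in KO libraries, against 32.2, 39.3, 34.4 and 36.9 CPM in control libraries. Its log2 fold change was 0.88 ± 0.063 (SE, adjusted p = 1.98e-10), the highest of the cluster. HOXA6 (Entrez 3203), a mid-cluster gene expressed at trunk level, had 62, 60.6, 68.3 and 67 CPM in KO libraries, against 34.6, 44.2, 38.4 and 38.7 CPM in control libraries. Its arms stood apart by more than the spread within either of them, and the log2 fold change was 0.77 ± 0.059 (adjusted p = 6.20e-10).

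HOXA4 (Entrez 3201), a gene of the neck region, had 35.3, 37.7, 37.5 and 40.7 CPM in KO libraries, against 19.6, 24.8, 25 and 21.8 CPM in control libraries, a log2 fold change of 0.75 ± 0.072 (adjusted p = 1.47e-08). HOXA5 (Entrez 3202), which is needed for lung development in mice, had 290, 289, 295 and 321 CPM in KO libraries, against 187, 207, 191 and 181 CPM in control libraries. With a log2 fold change of 0.65 ± 0.049 (adjusted p = 4.00e-10), HOXA5 was also the most abundant HOX mRNA per length in both arms. The genes from HOXA10 to the 5′ end had smaller values than these, again with no overlap between the arms. HOXA11 (Entrez 3207), a limb and kidney gene, had 68.2, 68.5, 70.6 and 76.5 CPM in KO libraries, against 47.2, 46, 50.6 and 47.7 CPM in control libraries (log2 fold change 0.57 ± 0.05, adjusted p = 4.99e-09). HOXA10 (Entrez 3206), known for its part in the uterus, had 323, 324, 317 and 351 CPM in KO libraries, against 243, 237, 234 and 230 CPM in control libraries (log2 fold change 0.48 ± 0.044, adjusted p = 9.20e-09). HOXA13 (Entrez 3209), which shapes digits and the genital tract, had 412, 388, 393 and 457 CPM in KO libraries, against 310, 317, 278 and 281 CPM in control libraries (log2 fold change 0.48 ± 0.055, adjusted p = 1.93e-07).

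The rest of HOXA included the smallest rise and the exception. HOXA3 (Entrez 3200), which is needed for the thymus and parathyroid, averaged 64.8 ± 4.48 CPM in KO and 49 ± 3.14 CPM in control libraries (SD, n = 4 each), with a log2 fold change of 0.41 ± 0.054 (adjusted p = 1.27e-06 by edgeR). HOXA7 (Entrez 3204), a trunk gene, had the smallest rise of the 10, with 10.8, 12.2, 12.4 and 13.2 CPM in KO libraries, against 10.3, 7, 10.2 and 10.5 CPM in control libraries (log2 fold change 0.30 ± 0.1, adjusted p = 0.0145). HOXA2 (Entrez 3199), which patterns the hindbrain and the pharyngeal arches, was the only HOXA gene with a negative value. It was also the least abundant of the cluster, at 1.98, 3.34, 2.3 and 3.64 CPM in KO libraries, against 3.47, 5.39, 3.79 and 3.25 CPM in control libraries. Its arms overlapped, and its log2 fold change of -0.43 ± 0.21 was not called (adjusted p = 0.0863). HOXA2 lay near the threshold. It was called lower with no count filter, at -0.45 (adjusted p = 0.0275 by edgeR), and with either of 2 libraries left out, at -0.53 (adjusted p = 0.0499) without KO sgRNA1 replicate 2 and -0.62 (adjusted p = 0.0183) without KO sgRNA2 replicate 2.

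Promoters are shown for the 2 largest HOXA rises among genes with a single promoter in the RefSeq promoter table (GRCh38.p14), each from 250 bases before to 50 bases after the start site, 5′ to 3′ on the gene's own minus strand. The HOXA9 window is chr7:27165488-27165787 and the HOXA6 window is chr7:27147725-27148024. Capitals mark matches to 4 motifs searched on both strands: the TATA box (TATAAA), the CCAAT box (CCAAT), the E-box (CACGTG, its own reverse complement) and a composite PBX-HOX site (TGATTNAT).
HOXA9: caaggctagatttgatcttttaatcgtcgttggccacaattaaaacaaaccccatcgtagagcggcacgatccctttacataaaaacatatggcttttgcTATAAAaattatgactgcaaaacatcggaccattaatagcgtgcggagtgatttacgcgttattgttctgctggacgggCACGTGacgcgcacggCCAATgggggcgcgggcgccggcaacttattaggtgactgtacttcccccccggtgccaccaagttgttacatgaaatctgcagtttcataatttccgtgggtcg
HOXA6: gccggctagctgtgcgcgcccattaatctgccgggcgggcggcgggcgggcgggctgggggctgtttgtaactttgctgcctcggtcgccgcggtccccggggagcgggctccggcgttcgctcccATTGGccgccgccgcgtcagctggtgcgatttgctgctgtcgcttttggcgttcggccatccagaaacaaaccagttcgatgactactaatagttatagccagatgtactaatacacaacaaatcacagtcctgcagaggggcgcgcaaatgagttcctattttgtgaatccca
In HOXA9 the TATA box begins 150 bases, the E-box 71 bases and the CCAAT box 55 bases before the start site. In HOXA6 the only match is a CCAAT box on the other strand, 124 bases before it. The HOXA9 window holds 22 CG dinucleotides and the HOXA6 window 29, against a median of 14 in all 35116 promoters of the table.

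The HOXB cluster divided by position. Its tested 3′ genes, HOXB2, HOXB3 and HOXB4, were called higher in KO cells, and no gene from HOXB5 to HOXB13 was. HOXB4 (Entrez 3214), known for expanding blood stem cells, had 34.1, 31.4, 34.5 and 36.5 CPM in KO libraries, against 21.4, 28.3, 24.3 and 22 CPM in control libraries. Its arms did not overlap (log2 fold change 0.56 ± 0.075, adjusted p = 1.61e-06). HOXB2 (Entrez 3212), a hindbrain gene, had 67.3, 65.5, 65.8 and 60.5 CPM in KO libraries, against 43.8, 48.5, 48 and 49.1 CPM in control libraries (log2 fold change 0.46 ± 0.055, adjusted p = 4.00e-07). HOXB3 (Entrez 3213), which works beside HOXB2 in the hindbrain, had 105, 103, 108 and 117 CPM in KO libraries, against 81.2, 115, 90.8 and 80.8 CPM in control libraries. The shallowest control library reached into the KO range, so the arms of HOXB3 overlapped (log2 fold change 0.28 ± 0.074, adjusted p = 0.00254). Without that library the HOXB3 value was 0.37 (adjusted p = 3.47e-06), and DESeq2 on all 8 libraries gave 0.25 (adjusted p = 0.113).

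From HOXB5 on, the HOXB values lay near 0 or below. HOXB5 (Entrez 3215) had a log2 fold change of 0.15 ± 0.12 (adjusted p = 0.274), which became 0.25 (adjusted p = 0.0312) without control sgRNA1 replicate 2, the shallowest library. HOXB7 had -0.17 ± 0.1 (adjusted p = 0.157), which became -0.25 (adjusted p = 0.046) without KO sgRNA2 replicate 2, and HOXB8 had -0.03 ± 0.08 (adjusted p = 0.775). HOXB9 (Entrez 3219), a thoracic-level gene, had 108, 109, 112 and 98 CPM in KO libraries, against 129, 125, 121 and 122 CPM in control libraries. By the gene lengths in the authors' tables, HOXB9 was the most abundant HOX mRNA per length outside HOXA. Every KO library of HOXB9 lay below every control library (log2 fold change -0.22 ± 0.047, adjusted p = 3.73e-04). HOXB6 had 59.4, 55.4, 60.7 and 59.8 CPM in KO libraries, against 68, 70.5, 63.5 and 59.2 CPM in control libraries. These arms overlapped, and the call on HOXB6 (log2 fold change -0.13 ± 0.055, adjusted p = 0.0401) was lost when any of 5 libraries was left out. It was then -0.14 (adjusted p = 0.0737) without KO sgRNA1 replicate 1, -0.11 (0.125) without KO sgRNA1 replicate 2, -0.10 (0.148) without control sgRNA1 replicate 1, -0.12 (0.0557) without control sgRNA1 replicate 2 and -0.14 (0.0673) without control sgRNA2 replicate 1. HOXB13 (Entrez 10481), known from the prostate and set far from the rest of the cluster, had 8.99, 8.39, 8.25 and 7.67 CPM in KO libraries, against 8.16, 4.04, 8.76 and 8.05 CPM in control libraries. Its value of 0.08 ± 0.13 (adjusted p = 0.598) became -0.02 without the shallowest control library.

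No HOXC gene was called higher in KO cells, and 3 of the 7 tested were called lower, beside 31.8% and 31.2% of all genes tested. HOXC8 (Entrez 3224), which sets motor neuron identity at forelimb level, had 5.25, 4.38, 4.55 and 6.22 CPM in KO libraries, against 8.56, 9.15, 9.52 and 8.05 CPM in control libraries. It fell in all 4 KO libraries and held the lowest HOX fold change (log2 -0.78 ± 0.13, adjusted p = 3.27e-05). HOXC9 (Entrez 3225), which sets thoracic motor neuron identity, had 26.5, 24.6, 30.1 and 29 CPM in KO libraries, against 34.2, 33.1, 36.4 and 33.8 CPM in control libraries, again without overlap (log2 fold change -0.31 ± 0.063, adjusted p = 2.11e-04). HOXC6 (Entrez 3223), a gene of forelimb-level motor neurons, had 18.2, 19.1, 19 and 17.3 CPM in KO libraries, against 22, 18.8, 20.9 and 20.3 CPM in control libraries.

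The arms of HOXC6 overlapped and its call was narrow (log2 fold change -0.18 ± 0.075, adjusted p = 0.0436). It was lost at -0.17 (adjusted p = 0.0891) without KO sgRNA1 replicate 1, -0.15 (0.114) without KO sgRNA2 replicate 2, -0.15 (0.152) without control sgRNA1 replicate 1, -0.17 (0.101) without control sgRNA2 replicate 1 and -0.20 (0.0609) without control sgRNA2 replicate 2. HOXC4 (Entrez 3221) had 34.9, 28.9, 34.5 and 31.3 CPM in KO libraries, against 31.2, 37.7, 38.6 and 39.9 CPM in control libraries, which overlapped (log2 fold change -0.16 ± 0.074, adjusted p = 0.0607). It passed the threshold at -0.24 (adjusted p = 0.00839) without KO sgRNA1 replicate 1 and at -0.25 (0.00659) without control sgRNA1 replicate 1. HOXC10, a lumbar-level gene, had a log2 fold change of -0.13 ± 0.11 (adjusted p = 0.306). HOXC5 had -0.13 ± 0.21 (adjusted p = 0.622), which became 0.01 without control sgRNA2 replicate 1, and HOXC13, the hair and nail gene at the 5′ end, had 0.17 ± 0.11 (adjusted p = 0.171). HOXC4 shares exonic bases on the same strand with HOXC5 and with HOXC6, which also shares some with HOXC9. The shared part was 14.4 to 17.8% of the exonic bases of HOXC4, HOXC5 and HOXC6 in GENCODE v29. Reads there could have been counted for either gene or left out. HOXD10 (16.8%) and HOXD11 (21.4%) share bases in the same way, as does HOXB6 (16.6%) with HOXB3.

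Of the 8 tested HOXD genes, 3 were called higher, 3 lower and 2 were not called. This is near the shares of all genes tested, 31.8% called higher and 31.2% lower, so the split does not set HOXD apart. By guide, 3 HOXD genes were called higher and 1 lower with sgRNA1, and 2 higher and 0 lower with sgRNA2. HOXD1 (Entrez 3231), the gene at the 3′ end, which is known in mice from pain-sensing neurons, had 3.74, 3.71, 4.07 and 4.3 CPM in KO libraries, against 1.05, 0.539, 1.66 and 1.55 CPM in control libraries. These are 257 KO and 58 control counts in all. Every KO library was above every control library, and HOXD1 had the largest HOX fold change (log2 1.58 ± 0.21, adjusted p = 1.09e-06). Its counts are few, and with every library thinned to the depth of the shallowest the value was 0.87 (adjusted p = 0.336). HOXD8 (Entrez 3234), a trunk gene in the middle of the cluster, had 13.8, 14.9, 13.5 and 13.7 CPM in KO libraries, against 8.24, 12.9, 7.45 and 7.73 CPM in control libraries. The arms did not overlap (log2 fold change 0.73 ± 0.11, adjusted p = 9.05e-06), and the highest control value was that of the shallowest library.

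HOXD3 (Entrez 3232), which helps shape the first neck vertebrae in mice, had 9.34, 8.91, 8.05 and 8.27 CPM in KO libraries, against 5.17, 8.62, 7.52 and 6.51 CPM in control libraries. Its arms overlapped and its call (log2 fold change 0.37 ± 0.13, adjusted p = 0.0201) was lost at 0.32 (adjusted p = 0.0658) without KO sgRNA1 replicate 1, 0.18 (0.242) without control sgRNA1 replicate 1 and 0.35 (0.0552) without control sgRNA2 replicate 2. HOXD4 (Entrez 3233), its neighbour, went the other way, with 19.1, 24.6, 22.6 and 20.2 CPM in KO libraries, against 21.9, 43.1, 28.2 and 23.6 CPM in control libraries. The shallowest control library gave the high value of 43.1 CPM. The HOXD4 call (log2 fold change -0.33 ± 0.13, adjusted p = 0.0313) was lost at -0.19 (adjusted p = 0.0868) without that library, control sgRNA1 replicate 2, and also at -0.26 (0.103) without KO sgRNA1 replicate 1, -0.30 (0.0638) without KO sgRNA2 replicate 2 and -0.28 (0.0907) without control sgRNA2 replicate 1.

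Of the 5′ HOXD genes, HOXD9 (Entrez 3235), a limb and lower-trunk gene, had 13.5, 14, 16.6 and 16.4 CPM in KO libraries, against 17.7, 24.5, 19.5 and 20.1 CPM in control libraries. Its arms stood apart (log2 fold change -0.37 ± 0.091, adjusted p = 0.00135). By guide, HOXD9 had -0.52 with sgRNA1 (adjusted p = 0.00418 by edgeR) and -0.26 with sgRNA2 (adjusted p = 0.0699), where it was not called. HOXD10 (Entrez 3236), a gene of lumbar motor neurons and limbs, had 52.5, 49.7, 53.8 and 60.1 CPM in KO libraries, against 51.4, 67.3, 65.8 and 63.5 CPM in control libraries. The HOXD10 arms overlapped, and the call (log2 fold change -0.17 ± 0.063, adjusted p = 0.0244) was lost at -0.13 (adjusted p = 0.0969) without KO sgRNA2 replicate 1 and at -0.16 (0.0689) without control sgRNA2 replicate 1. HOXD11, which acts with HOXA11 in forearm and kidney in mice, had -0.05 ± 0.055 with a 95% interval of -0.16 to 0.07 (adjusted p = 0.487). HOXD13, the digit gene at the 5′ end, had 0.04 ± 0.045 with an interval of -0.05 to 0.14 (adjusted p = 0.418). Both intervals lie below the estimate of every called HOXA gene, the smallest being 0.30 for HOXA7. The 95% interval of HOXA7, 0.09 to 0.51, overlaps that of HOXD13.

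HOXD promoters are shown for the 2 largest rises and the largest fall among the members with a single promoter in the same table, on their own plus strand and with the same motifs in capitals. The windows are chr2:176188418-176188717 for HOXD1, chr2:176129455-176129754 for HOXD8 and chr2:176151300-176151599 for HOXD4.
HOXD1: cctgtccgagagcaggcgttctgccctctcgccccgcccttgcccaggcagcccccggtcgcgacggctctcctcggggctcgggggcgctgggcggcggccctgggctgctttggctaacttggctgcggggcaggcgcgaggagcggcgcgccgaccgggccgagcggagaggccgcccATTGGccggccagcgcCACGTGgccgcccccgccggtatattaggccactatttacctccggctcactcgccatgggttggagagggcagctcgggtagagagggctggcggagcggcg
HOXD8: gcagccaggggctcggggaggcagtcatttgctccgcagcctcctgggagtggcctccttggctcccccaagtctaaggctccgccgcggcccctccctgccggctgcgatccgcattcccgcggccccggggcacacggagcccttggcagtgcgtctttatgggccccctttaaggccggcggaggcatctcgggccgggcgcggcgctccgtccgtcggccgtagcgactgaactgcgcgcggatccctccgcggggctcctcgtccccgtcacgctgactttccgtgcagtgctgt
HOXD4: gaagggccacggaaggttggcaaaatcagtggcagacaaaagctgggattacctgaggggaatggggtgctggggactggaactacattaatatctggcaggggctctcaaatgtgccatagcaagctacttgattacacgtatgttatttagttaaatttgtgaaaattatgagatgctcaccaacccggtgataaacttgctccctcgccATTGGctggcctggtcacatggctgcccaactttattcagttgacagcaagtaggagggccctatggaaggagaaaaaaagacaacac
In HOXD1 a CCAAT box on the other strand begins 69 bases and an E-box 53 bases before the start site, HOXD8 holds none of the 4 motifs, and HOXD4 holds a CCAAT box on the other strand 38 bases before the start. The windows differ in base composition, with 36 CG dinucleotides in HOXD1, 34 in HOXD8 and 4 in HOXD4. Over the 27 promoters that the table gives for 20 HOX genes (HOXC4 and HOXC5 share 1 window), the E-box was in 9, or in promoters of 9 genes, and it was in 7.26% of all promoters. Of the 9 genes, 6 were called higher (HOXA3, HOXA4, HOXA7, HOXA9, HOXD1 and HOXD3), 1 lower (HOXD10) and 2 not (HOXD11 and HOXD13). Of the 11 genes without it, 5 were called higher, 1 lower and 3 not, and 2 were not tested. Both sets stand beside 31.8% called higher and 31.2% called lower among all genes tested. The CCAAT box was in 18 of the 27 promoters (17 genes) and in 34.6% of all promoters. The TATA box was in 5 of the 27 (4 genes) and in 11.5% of all promoters. The PBX-HOX composite was in 2 of the 27, those of HOXA2 and HOXD11, and in 2.82% of all promoters. These are letter matches only, and no test was made on them.

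By library, the same split into clusters was seen throughout. Each library's level of each gene, set against the mean of the controls, showed HOXA above the controls in all 4 KO libraries apart from HOXA2. The shallowest control library stood away from the other controls in both directions for some genes, as for HOXC5 at 1.08 CPM (2.28 to 3.04 CPM in the other controls) and HOXD4 at 43.1 CPM (21.9 to 28.2 CPM in the other controls).

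**Figure D2:**
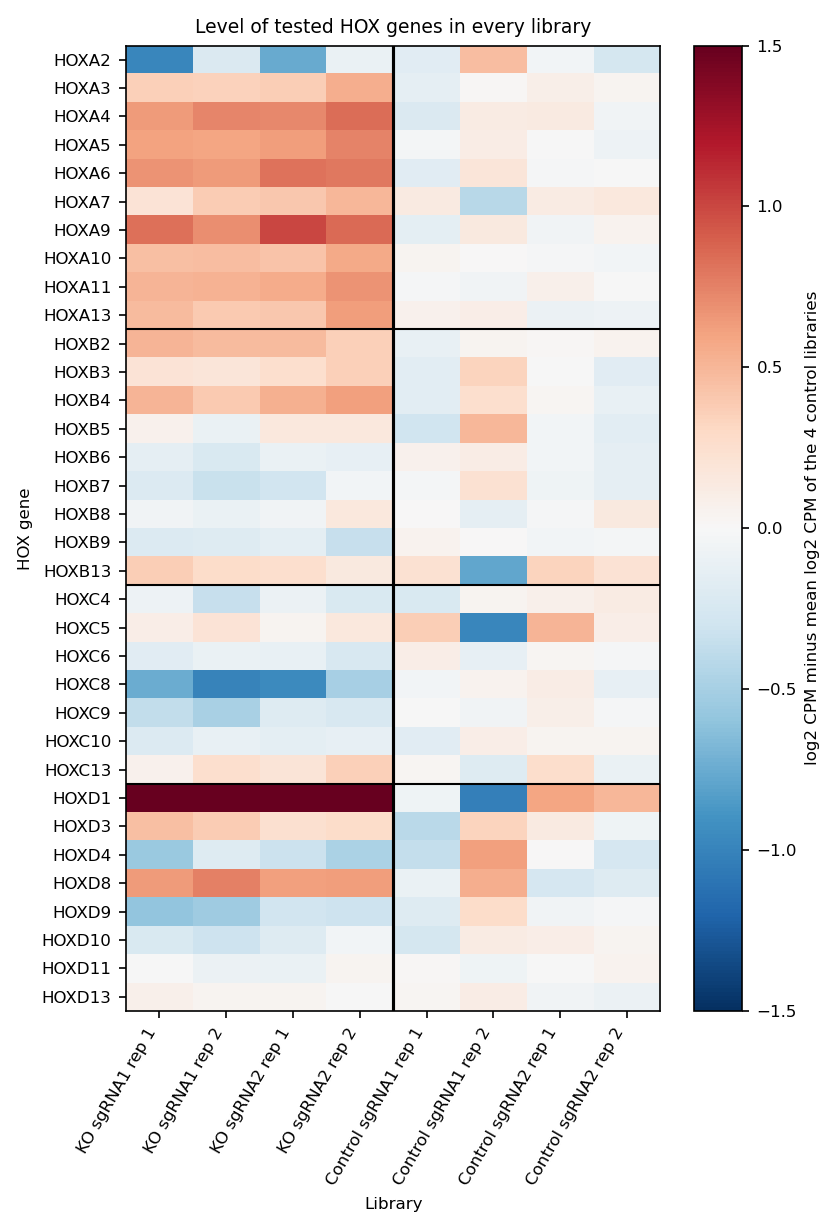
Log2 CPM of 34 of the tested HOX genes (rows, 3′ to 5′ in each cluster) in each library (columns, KO left of the line and control right of it), less the mean of the 4 control libraries. Red is above and blue below that mean; colours stop at 1.5. The KO columns are red for HOXA except HOXA2, and HOXD1 is the reddest row.

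Summed over its members, the HOXA cluster gave 1343, 1318, 1346 and 1484 CPM in KO libraries, against 943, 991, 927 and 913 CPM in control libraries. That is 1373 ± 75.1 CPM in KO and 943 ± 33.9 CPM in control cells (SD, n = 4 each), a ratio of 1.46. The HOXB sums were 422 ± 8.34 CPM in KO and 403 ± 25 CPM in control cells (ratio 1.05). The overlap between the HOXB arms rests on control sgRNA1 replicate 2, the shallowest library, at 439 CPM, since the other controls had 383 to 398 CPM and the KO libraries 410 to 430 CPM. HOXC summed to 104 ± 4.38 CPM in KO and 121 ± 5.71 CPM in control cells (ratio 0.864), and here the highest KO library, at 109 CPM, lay under the lowest control library, at 116 CPM. HOXD summed to 261 ± 4.11 CPM in KO and 272 ± 24.1 CPM in control cells (ratio 0.961). The HOXD sums overlapped, and without control sgRNA1 replicate 2, which had the highest sum at 306 CPM, their log2 ratio was 0.01 in place of -0.06.

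**Figure D3:**
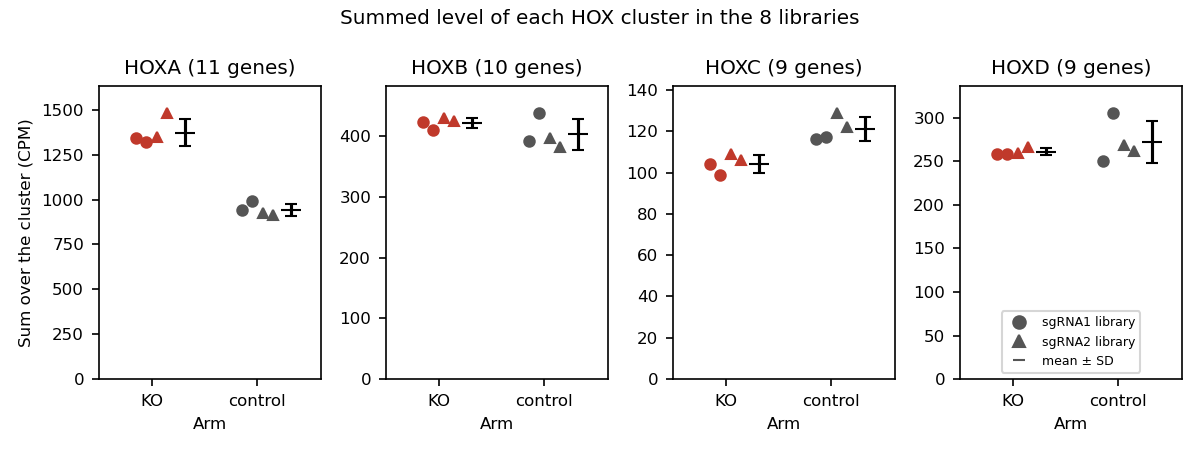
Sum of CPM over the members of each HOX cluster (y axis, from 0) in the 4 KO (left) and the 4 control (right) libraries. Circles are sgRNA1 and triangles sgRNA2 libraries, and bars show mean ± SD; the arms are apart for HOXA and HOXC and overlap for HOXB and HOXD.

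Levels of different genes were compared as CPM per kilobase of the gene length in the authors' tables. In this measure HOXA held 65.8% ± 0.828 of the HOX total in KO and 55.3% ± 0.562 in control libraries (SD, n = 4 each). HOXB held 15.9% in KO and 19% in control libraries, HOXC 6.14% in KO and 9.09% in control libraries, and HOXD 12.2% in KO and 16.5% in control libraries. These shares depend on HOXA, and the HOXB sum itself was 134 ± 2.58 CPM per kilobase in KO and 127 ± 4.84 in control libraries. HOX mRNA came mostly from HOXA in both arms, and more so in KO cells. The order of the genes depends on the lengths used, which for some genes differ from the exonic bases in GENCODE v29. HOXA6 is given 802 bases against 1285, and HOXD13 6273 against 2240, and no order by exonic bases was made. By the lengths used, the 5 highest genes were the same in both arms and in the same order. They were HOXA5 (180 in KO and 116 in control cells), HOXA10 (103 in KO and 74 in control cells), HOXA13 (84 in KO and 60.4 in control cells), HOXA6 (80.4 in KO and 48.6 in control cells) and HOXB9 (37.7 in KO and 44 in control cells). Among neighbours in that order, HOXA13 and HOXA6 overlapped in KO libraries (79 to 93.1 for HOXA13 and 75.5 to 85.2 for HOXA6), and HOXA6 and HOXB9 overlapped in control libraries (43.1 to 55.1 for HOXA6 and 42.8 to 45.7 for HOXB9).

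Below them, HOXB2, HOXA9, HOXD11, HOXD10 and HOXA11 followed in KO cells, at 36.6 down to 26.8, and HOXB9 to HOXA11 each overlapped the next. In control cells HOXD10 (34.4), HOXD11 (31), HOXB2 (26.7), HOXC9 (22.3) and HOXA11 (18) came next. HOXA9 stood at rank 7 in KO cells (31.1) and at rank 11 in control cells (17.3). At the low end of the tested genes in KO cells were HOXC8 (2.23), HOXD1 (1.88), HOXD3 (1.85), HOXA2 (1.58) and HOXC5 (1.07). The value of HOXB3, 5.04 in KO and 4.28 in control cells, is lowered by the length of 21485 bases the tables give it. Levels did not follow position: in HOXA the most abundant gene sits in the middle, with HOXA2 and HOXA7 as low points between more abundant neighbours.

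**Figure D4:**
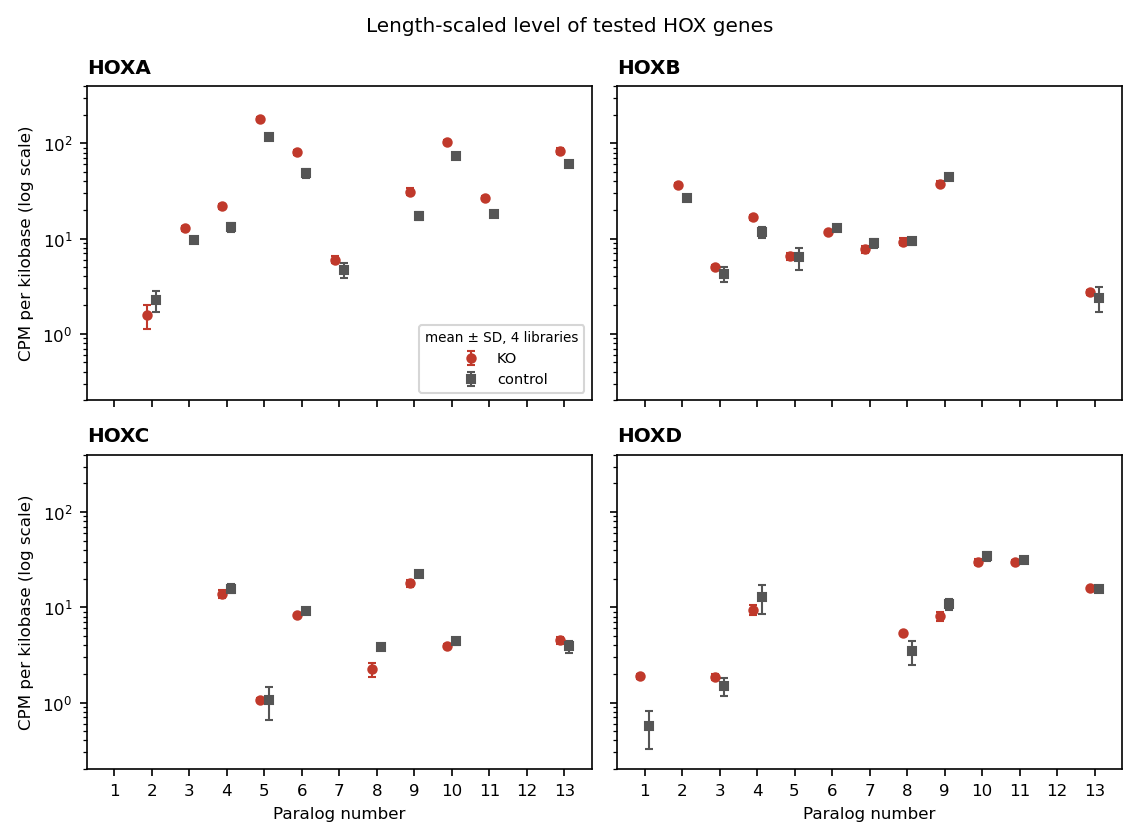
Level of 34 of the tested HOX genes as CPM per kilobase of gene length (y axis, log scale) against paralog number (x axis) in KO (red circles, left) and control (grey squares, right) libraries. Points are means and bars SD over 4 libraries; HOXA5 is highest in both arms.

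Grouped by number across clusters, the counts are set beside 31.8% called higher and 31.2% called lower among all genes tested. Of the 11 tested genes numbered 1 to 4, 8 were called higher and 1 lower (median log2 fold change 0.41). Of the 11 numbered 5 to 8, 4 were higher and 3 lower (median -0.03), and of the 13 tested genes numbered 9 to 13, 4 were higher and 4 lower (median 0.04). All 4 rises among the 5′ genes were HOXA genes. Paralogs did not move together across clusters. In group 9, HOXA9 rose while HOXB9, HOXC9 and HOXD9 all fell, with every KO library of those 3 genes below every control library. In group 4, HOXA4 and HOXB4 rose, HOXD4 was called lower and HOXC4 was not called, and in group 8, HOXD8 rose, HOXC8 fell and HOXB8 had a value of -0.03. Group 3 was the only one with 3 tested members all called higher, HOXD3 with the limits given above.

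Within clusters, the rank correlation of paralog number with log2 fold change (Spearman's rho) was 0.18 over 11 genes in HOXA, -0.73 over 9 in HOXB, 0.21 over 7 in HOXC and -0.40 over 8 in HOXD. These are descriptions over few genes that share libraries and, in part, reads. In HOXB the values ran from 0.46 and 0.56 for HOXB2 and HOXB4 to -0.22 for HOXB9. In HOXD the highest value was that of HOXD1, and HOXD8, called higher, stands between HOXD4 and HOXD9, which were both called lower.

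The guides repeat the comparison in separate libraries, and 47.6% of all genes were called with sgRNA1 and 51.2% with sgRNA2. With sgRNA1, 13 HOX genes were called higher, against 24.3% of all genes, and 5 lower, against 23.3%. With sgRNA2, 14 were called higher, against 25.7%, and 4 lower, against 25.4%. Of these, 12 were called higher with both guides, against 20.3% of all genes: 8 in HOXA, HOXB2 and HOXB4 in HOXB, and HOXD1 and HOXD8 in HOXD. HOXA7 was called with neither guide alone (log2 fold change 0.29 with sgRNA1 and 0.31 with sgRNA2). The values by guide had the same sign for all tested genes except HOXB13 (0.30 with sgRNA1 and -0.08 with sgRNA2), HOXC5 (0.02 and -0.23) and HOXD13 (-0.01 and 0.09). HOXD1 had 2.00 with sgRNA1 and 1.38 with sgRNA2, and HOXA9 had 0.82 and 0.93.

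The difference between the guides was tested as an interaction in edgeR. It was called for 0 HOX genes and for 0% of all genes tested, and DESeq2 called 0 HOX genes too. An unadjusted p under 0.05 in edgeR was reached by HOXA13 and HOXB6, 2 of the 35, against 4.41% of all genes. The HOXA13 value was 0.25 ± 0.099 higher on the log2 scale with sgRNA2 than with sgRNA1 (adjusted p = 1). Between the sgRNA1 and sgRNA2 libraries of the same arm, 0 HOX genes were called in the KO arm and 0 in the control arm. By edgeR's unadjusted p under 0.05, 2 HOX genes differed between them in the KO arm (HOXC9 and HOXD9), against 4.24% of all genes. In the control arm 3 did (HOXA13, HOXB6 and HOXC4), against 8.25%. Of all genes 0% were called in this comparison in the KO arm and 0.0277% in the control arm.

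The 4 genes below the count filter are given by raw counts. HOXB1, a hindbrain gene at the 3′ end of its cluster, had 2 counts in 1 KO library and 0 in the control libraries. HOXC12 had 2 counts over 2 KO libraries and 0 in the control libraries. A count of 0 over the control arm allows up to 0.07 CPM, counting error only, so neither gene shows a difference. HOXC11 had 1, 1, 4 and 4 counts in KO libraries, against 4, 0, 3 and 4 in control libraries, a CPM ratio of 0.601 with an exact 95% interval of 0.229 to 1.56. HOXD12 had 6, 4, 5 and 10 counts in KO libraries, against 1, 2, 6 and 3 in control libraries, a ratio of 1.38 with an interval of 0.667 to 3.01. Neither difference was detectable at this depth, and all 4 genes stayed uncalled when no filter was used (unadjusted p from 0.348 to 0.421 in edgeR). HOXD12 lies between HOXD11 and HOXD13, which had 44.2 and 99.3 CPM on average in KO libraries.

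The 5 non-coding genes tested inside HOXA were called higher, as were most HOXA genes. Of 23 non-coding genes inside the clusters, 21 had any count and 12 could be tested, with 7 called higher and 1 lower. Among all genes tested, 31.8% were called higher and 31.2% lower. HOXA10-AS, antisense to HOXA9 and HOXA10, had 17.6, 18.1, 21.2 and 18.9 CPM in KO libraries, against 6.94, 10.5, 7.79 and 6.75 CPM in control libraries (log2 fold change 1.34 ± 0.11, adjusted p = 1.15e-09), beside 0.88 for HOXA9 and 0.48 for HOXA10. HOXA11-AS rose by 0.75 ± 0.064 (adjusted p = 2.68e-09) and HOXA-AS3 by 0.67 ± 0.16 (adjusted p = 0.00121). HOXA-AS2, at 0.44 ± 0.17 (adjusted p = 0.0327), and HOTAIRM1, a transcript known from myeloid cells, at 0.14 ± 0.06 (adjusted p = 0.0405), were called by a small margin. Without 1 library HOXA-AS2 lost its call at 0.38 (adjusted p = 0.0888) without KO sgRNA1 replicate 2, 0.38 (0.107) without KO sgRNA2 replicate 1, 0.47 (0.053) without control sgRNA1 replicate 1, 0.39 (0.0611) without control sgRNA1 replicate 2 and 0.39 (0.0966) without control sgRNA2 replicate 1. HOTAIRM1 lost it at 0.12 (adjusted p = 0.146) without KO sgRNA1 replicate 1, 0.14 (0.0813) without KO sgRNA1 replicate 2, 0.14 (0.0941) without KO sgRNA2 replicate 1, 0.09 (0.229) without control sgRNA1 replicate 1, 0.16 (0.0626) without control sgRNA2 replicate 1 and 0.14 (0.0913) without control sgRNA2 replicate 2.

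HOTTIP, a transcript just 5′ of HOXA13 that works with WDR5 and MLL on the 5′ HOXA genes, was added after its values were seen. It had 4.55, 5.79, 4.39 and 4.23 CPM in KO libraries, against 1.45, 2.69, 2.14 and 1.71 CPM in control libraries (log2 fold change 1.31 ± 0.2, adjusted p = 6.59e-06). The antisense genes matter for the counts themselves, because the strand setting used in counting is not given in the sources used here. Without strand, reads of a gene and its antisense partner cannot be told apart. In GENCODE v29, 62.5% of the exonic bases of HOXA7, 39.3% of those of HOXA6 and 31.1% of those of HOXA11 lie under an antisense gene. Of the tested genes with 0% there, HOXA5, HOXB4 and HOXD8 were called higher. HOXB9, HOXC8, HOXD4, HOXD9 and HOXD10, also at 0%, were called lower, and the rest at 0% were not called. The other HOX genes called higher have some antisense overlap. The part of antisense reads in the calls was not tested.

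In HOXB, HOXB-AS3 had 20, 22.9, 19.7 and 19.9 CPM in KO libraries, against 11.6, 10.5, 12.5 and 12.7 CPM in control libraries (log2 fold change 0.77 ± 0.087, adjusted p = 1.80e-07). HOXB-AS3 shares exonic bases with HOXB3, which was called higher, and with HOXB5 and HOXB6, which were not. HOXB-AS1 had 0.74 ± 0.26 (adjusted p = 0.0199), a call lost at 0.54 (adjusted p = 0.104) without KO sgRNA1 replicate 1, 0.61 (0.0914) without KO sgRNA2 replicate 1, 0.60 (0.0948) without control sgRNA1 replicate 1 and 0.65 (0.0708) without control sgRNA2 replicate 1. In HOXC, HOTAIR, a transcript between HOXC11 and HOXC12 known for binding Polycomb proteins, had 2.22, 1.71, 2.46 and 2.25 CPM in KO libraries, against 4.68, 4.85, 4.48 and 5.21 CPM in control libraries. HOTAIR was lower in every KO library (log2 fold change -1.12 ± 0.17, adjusted p = 7.76e-06). HOXC13-AS (0.47 ± 0.32, adjusted p = 0.213) and HOXC-AS1 (-0.21 ± 0.33, adjusted p = 0.59) were not called, nor were HAGLR (0.11 ± 0.061, adjusted p = 0.141) and HOXD-AS2 (0.08 ± 0.23, adjusted p = 0.763) in HOXD. HOXD-AS2 became -0.07 without KO sgRNA2 replicate 1, -0.01 without control sgRNA1 replicate 2 and -0.09 without control sgRNA2 replicate 1, and HOXC-AS1 became 0.06 without KO sgRNA2 replicate 1. PRAC2, a prostate-expressed gene beside HOXB13, had 26 KO and 36 control counts (log2 fold change -1.07 ± 0.37, adjusted p = 0.0151), a call lost at -0.95 (adjusted p = 0.0504) without KO sgRNA1 replicate 2, -0.97 (0.0631) without KO sgRNA2 replicate 1 and -0.97 (0.0715) without control sgRNA2 replicate 1. The HOXA10-HOXA9 readthrough gene and PRAC1 each had 3 KO and 0 control counts.

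The nearest coding genes outside the clusters also changed in most cases. Their distances from the clusters ran from 3525 bases (EVX2) to 1021887 bases (HNRNPA3), with SNX10 at 718610 bases. Of 16 flanking genes, 14 were tested, 10 were called higher and 3 lower, beside 31.8% higher and 31.2% lower among all genes tested. At HOXA, SKAP2, an adaptor protein gene on the 3′ side, had 280, 276, 274 and 268 CPM in KO libraries, against 194, 179, 187 and 177 CPM in control libraries (log2 fold change 0.57 ± 0.042, adjusted p = 3.41e-10), while SNX10 beyond it had -0.46 ± 0.062 (adjusted p = 1.89e-06). On the 5′ side HIBADH, a valine-breakdown enzyme, had -0.04 ± 0.049 (adjusted p = 0.516), and EVX1, an even-skipped homeobox gene, had 11 KO and 2 control counts. EVX2, the homeobox gene next to HOXD13, had 63 KO and 15 control counts and a log2 fold change of 1.45 ± 0.37 (adjusted p = 0.00198), beside 0.04 for HOXD13. TTLL6, beyond HOXB13, had 56 KO and 13 control counts and 1.48 ± 0.43 (adjusted p = 0.005). By guide, EVX2 had 2.04 with sgRNA1 and 1.12 with sgRNA2, where it was not called, and TTLL6 had 0.60 with sgRNA1, where it was not called, and 2.31 with sgRNA2. SKAP1, the gene on the 3′ side of HOXB, had 36 KO and 15 control counts and was not tested. The remaining called flanks were CALCOCO2 (0.44), SNX11 (0.37), CALCOCO1 (0.34), SMUG1 (0.23), MTX2 (0.22), CBX5 (0.19) and LNPK (0.19), which were higher, and ATP5MC2 (-0.31) and HNRNPA3 (-0.51), which were lower.

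**Figure D5:**
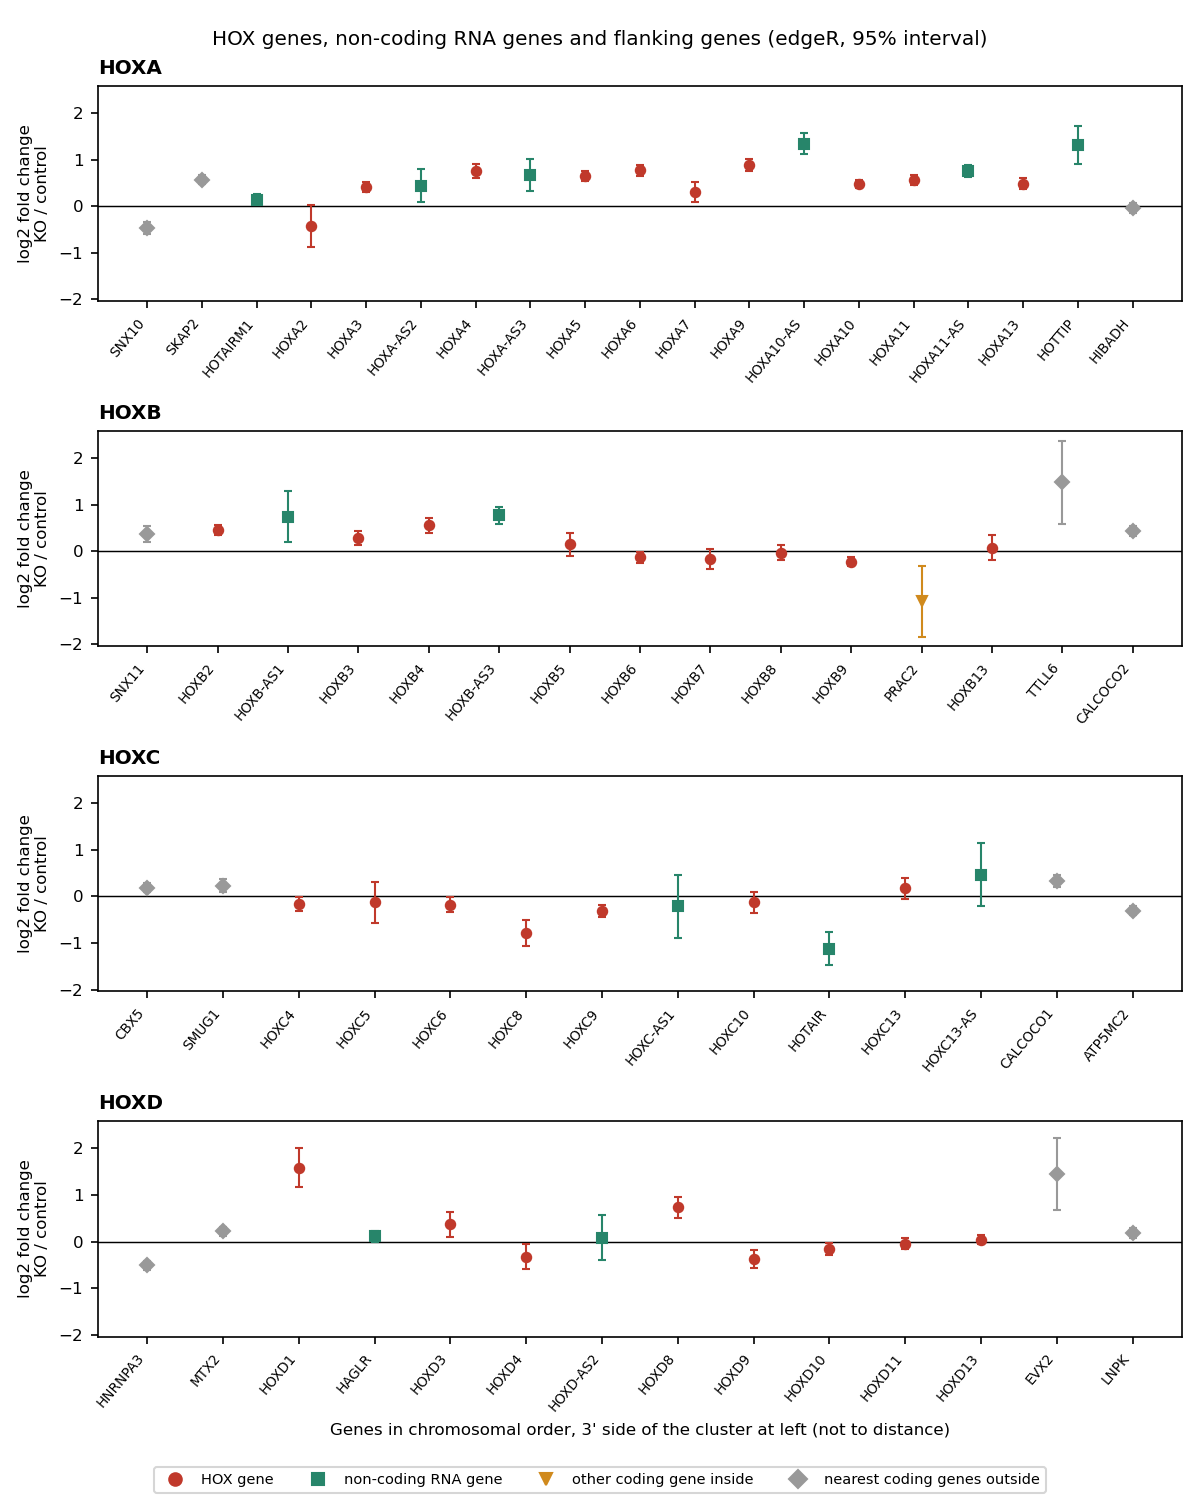
Log2 fold change of KO over control (y axis) with its 95% interval for tested genes in chromosomal order (x axis, 3′ side at left, not to distance). Red circles are HOX genes, green squares non-coding genes, orange triangles other coding genes inside a cluster and grey diamonds flanking genes; the HOXA non-coding genes lie above 0 with the HOXA genes, and HOTAIR lies at -1.12.

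Among genes known to act on or with HOX genes, changes ran in both directions, and the counts below are set beside 31.8% called higher and 31.2% called lower among all genes tested. Of 9 PBX, MEIS and PKNOX cofactor genes, 4 were called higher and 1 lower, and MEIS2, PBX3 and MEIS3 had log2 fold changes of 0.57 ± 0.054, 0.49 ± 0.05 and 0.54 ± 0.1 (adjusted p = 1.34e-08, 3.91e-08 and 1.32e-04). The cofactor called lower is too low in abundance for the naming rule, but it fell by more than any of these rose. Of 18 retinoid genes 12 were tested, with 5 called higher and 5 lower. The retinoic acid receptor gene RARB, itself a known retinoic acid target, had 83.2, 85, 79 and 79.8 CPM in KO libraries, against 50.5, 49.8, 43.5 and 45.7 CPM in control libraries (log2 fold change 0.79 ± 0.048, adjusted p = 1.67e-11). The retinoic acid synthesis genes differed in direction. RDH10 (0.73 ± 0.048, adjusted p = 5.51e-11) and ALDH1A2 (0.44 ± 0.046, adjusted p = 4.67e-08) rose, and ALDH1A3, of lower abundance, fell (-0.84 ± 0.18, adjusted p = 3.58e-04), though with sgRNA1 alone it was not called (-0.54, adjusted p = 0.107). The receptors RARG (-0.72 ± 0.089) and RXRA (-0.61 ± 0.082) and the reductase DHRS3 (-0.42 ± 0.069) fell (adjusted p = 6.00e-07, 1.71e-06 and 2.32e-05). CDX2, an activator of trunk HOX genes, fell (log2 fold change -0.46 ± 0.1, adjusted p = 4.55e-04). Of the 5 genes of its list, which holds other upstream regulators, 3 were tested, with 2 called higher and 1 lower.

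Of 16 MLL and DOT1L complex genes, all tested, 6 were called higher and 8 lower, again beside 31.8% and 31.2% of all genes tested. By smallest p, AFF4 (0.48 ± 0.046), MLLT3 (0.39 ± 0.052) and RBBP5 (0.31 ± 0.048) were the leading rises, and the MLL partners MEN1 (-0.63 ± 0.045), PSIP1 (-0.53 ± 0.042) and WDR5 (-0.50 ± 0.045) the leading falls, while MLLT10 fell by more than PSIP1 (-0.56 ± 0.056, adjusted p = 3.52e-08). MEN1 had 68.3, 65.5, 67.2 and 71 CPM in KO libraries, against 104, 107, 105 and 106 CPM in control libraries (adjusted p = 2.01e-10). MEN1 encodes menin, which MLL needs to keep HOXA genes active in leukaemia, and it was lower in every KO library. Of 32 Polycomb and H3K27 demethylase genes 28 were tested, with 7 called higher and 14 lower, and EPOP and PCGF2 had 0 counts in all libraries. RYBP, a partner of the Polycomb ubiquitin ligase, had 109, 107, 106 and 97.6 CPM in KO libraries, against 59.9, 49.5, 58.1 and 54 CPM in control libraries (log2 fold change 0.89 ± 0.054, adjusted p = 1.73e-11). The demethylase KDM6A (0.37 ± 0.044) rose as well, while CBX2 (-0.81 ± 0.051), CBX6 (-0.71 ± 0.043) and PCGF5 (-0.61 ± 0.051) fell. Of 8 CTCF and cohesin genes, which organise the loops of the clusters, 2 were called higher and 3 lower. NIPBL had 0.48 ± 0.048 (adjusted p = 3.18e-08), STAG2 -0.44 ± 0.043 (adjusted p = 2.22e-08), STAG1 -0.28 ± 0.046 (adjusted p = 2.25e-05) and SMC3 -0.20 ± 0.044 (adjusted p = 3.68e-04). WAPL had 0.13 ± 0.046 (adjusted p = 0.0226), a call lost at 0.12 (adjusted p = 0.0793) without KO sgRNA1 replicate 1, 0.08 (0.177) without KO sgRNA2 replicate 1, 0.10 (0.0651) without control sgRNA1 replicate 2, 0.12 (0.0777) without control sgRNA2 replicate 1 and 0.11 (0.0894) without control sgRNA2 replicate 2.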

How the data were processed

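The authors deposited raw gene counts for each of 8 stranded poly(A) RNA-seq libraries (80 bp paired reads), and these were used as they are. Per the submitters' processing notes, featureCounts and hg38 were used; the aligner, annotation release, strand setting and filters are not stated in any source used here. The tables also give a length for each gene, per the file headers, which served only for CPM per kilobase. Of 28395 entries, 459 without a gene ID (0.0284 to 0.0425% of counts) were left out, and 27744 of 27936 genes matched RefSeq GRCh38.p14, which gave symbols and positions on the hg38 chromosomes. Overlaps were read from GENCODE v29.

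Counts were fitted with edgeR 4.0.16 on R 4.3.3 (TMM, filterByExpr with minimum count 10 and minimum total 15, quasi-likelihood F test, guide and arm as terms, adjusted p under 0.05). Contrasts within and between guides came from a model of the 4 group means. The scripts were tested on simulated counts with known changes. SE is the fold change divided by the root of F. Intervals for rare genes are exact at 95% and, like the floor of 3 counts for a gene at 0, cover counting error only, since reads carry no molecular identifiers.

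All HOX genes, genes inside and beside the clusters, KAT5, up to 3 called members of each regulator list in each direction (smallest p, mean log2 CPM 1 or more), and the most abundant member of each marker list are named, except that results of 4 genes, a HOX gene among them, are not reported here and are drawn in no figure as single genes; counts, sums and adjusted p-values include them. ALDH1A3, MLLT10 and VIM were named after their values were seen. The members and lists were chosen with earlier results of these data known, so no p is given over a list. Alternatives were DESeq2 1.42.0, its size factors, limma-voom 3.58.1, other filters, no guide term, a replicate block, thinned counts, the contrast of each guide and each library left out. Calls and fold changes with a guide alone are its contrast in the model of the 4 group means. Filter, scaling and spread in that model come from all 8 libraries.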

Additional observations from a re-analysis of the deposited data

Results flagged for a closer look

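In 6 of 70 sets of 4 libraries (35 HOX genes in 2 arms), 1 library stood far from the other 3, measured as its gap to the nearest library over the whole range, which chance gives in about 1 of 20 sets. KO sgRNA2 replicate 2 was the high library for 3 genes of the KO arm. HOXA3 had 71.5 CPM there (62.1 to 63.3 in the others), HOXA5 had 321 CPM (289 to 295) and HOXB8 had 20.8 CPM (17.4 to 17.9). Control sgRNA1 replicate 2, the shallowest library, stood apart for 3 genes of the control arm. HOXA7 had 7 CPM there (10.2 to 10.5 in the others), HOXB13 had 4.04 CPM (8.05 to 8.76) and HOXD8 had 12.9 CPM (7.45 to 8.24). Without the library in question HOXA3, HOXA5, HOXA7 and HOXD8 stayed called higher, while HOXB8 and HOXB13 stayed uncalled.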

How the results depend on the processing

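Of 630 values (35 HOX genes under 18 alternatives), 556 kept direction and side of the threshold, 53 lost the call, 10 gained one and 11 changed sign; of 1176 values of the other named genes, 1090 kept both, 73 lost the call, 4 gained one and 9 changed sign. No called HOXA gene lost its call when a library was left out. Over the 8 libraries left out in turn, 15 to 17 HOX genes were called higher (16 in the main analysis) and 4 to 8 lower (8), with 0 guide differences throughout. The count of lower genes was 5 by DESeq2, 5 with sgRNA1 alone and 4 with sgRNA2 alone. In 1 seeded draw thinned to the shallowest library, 11 HOX genes were called higher and 0 lower (edgeR; 1976 and 2103 among all genes, against 4602 and 4507). DESeq2 did not call HOXB3, HOXB6, HOXC6, HOXD4, HOTAIRM1, HOXA-AS2, HOXB-AS1 or PRAC2, and limma-voom did not call HOXD4. The log2 ratio of HOXA sums was 0.46 with sgRNA1 and 0.62 with sgRNA2 (0.54 overall; 0.50 to 0.57 with a library left out).

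Signs turned when thinned for HOXB5 (-0.29), HOXB8 (0.34), HOXB13 (-0.29), HOXC5 (1.28), HOXC6 (0.13), HIBADH (0.03) and HAGLR (-0.10). HOXC6 was called lower in the main analysis and kept that call in 7 of the 18 alternatives. With sgRNA1 alone they turned for HOXC5 (0.02), HOXD13 (-0.01) and HAGLR (-0.02), and with sgRNA2 alone for HOXB13 (-0.08), HOXC-AS1 (0.09) and COL1A1 (-0.04). With a library left out they turned for HOXB8 (-0.08 to 0.01), HOXC-AS1 (-0.68 to 0.06), HOXD-AS2 (-0.09 to 0.25), HOXB13 (-0.02 to 0.16) and HOXC5 (-0.24 to 0.01). Thinning leaves fewer counts by construction; the other causes were not tested. The replicate numbers did not pair the libraries (correlations of deviations from -0.0531 to 0.0276), and with a replicate block 16 HOX genes were called higher and 7 lower, with HOXA2 called lower (-0.49, adjusted p = 0.0384). Depth limits the 4 rare genes and, in the control arm, HOXC5 and HOXD1.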
